A study of Mus musculus with 14 samples.

Results

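Cbs, Cth, Cdo1 and Csad encode the enzymes that carry sulphur from homocysteine to taurine, and these 4 of the 271 different mouse genes on the array were measured with 8 of its 284 mouse oligonucleotides. Every oligonucleotide whose name or symbol in the array files denotes one of the 4 genes was taken. Cbs has 3, Cth 1, Cdo1 1 and Csad 3, and each is called by its gene and its position number on the array. RNA came from 7 mthr-/- mice and 7 wild type mice of the C57BL/6 background, aged 15 to 20 weeks, with liver as the labelled tissue and primary hepatocytes as the labelled cell type. The labels do not spell out mthr. Homozygous animals alone received 2% (w/v) betaine in their drinking water, and the effect of genotype and that of betaine cannot be told apart. The mthr-/- group held 4 females and 3 males, and the wild type group 2 females and 5 males, each animal on 1 array.

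In the liver, cystathionine beta-synthase (Cbs) joins homocysteine with serine, and cystathionine gamma-lyase (Cth) splits the product to release cysteine. Cysteine dioxygenase (Cdo1) oxidises cysteine to cysteine sulfinate, and cysteine sulfinic acid decarboxylase (Csad) turns that into hypotaurine, from which taurine is formed. Betaine enters the same network upstream, as the methyl donor with which Bhmt returns homocysteine to methionine. Hepatocytes are a main site of the route, and the taurine they make is conjugated to bile acids.

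The 3 Cbs oligonucleotides carry different descriptions. Cbs 394 is annotated to transcript variant 2, Cbs 326 to transcript variant 1, and Cbs 234 to the same reference transcript record as Cbs 326. The 3 Csad oligonucleotides, Csad 302, Csad 153 (named Oligo 1) and Csad 129 (named Oligo 2), share 1 record. The oligonucleotide sequences themselves were not used here. To show how far the annotated starts of genes with several oligonucleotides differ, the 300 bases from 250 before to 50 after each start in the RefSeq promoter table (build GRCm38.p6) are given, all on the minus strand of their chromosome and 5′ to 3′. The Cbs window lies at chr17:31637156-31637455, and the Csad windows at chr15:102205003-102205302 and chr15:102188994-102189293. Capitals mark matches, on either strand, to the motif letters CCAAT (the CCAAT box) and to the letters GGGCGG (the GC box), which nowhere overlap each other.
Cbs start 1: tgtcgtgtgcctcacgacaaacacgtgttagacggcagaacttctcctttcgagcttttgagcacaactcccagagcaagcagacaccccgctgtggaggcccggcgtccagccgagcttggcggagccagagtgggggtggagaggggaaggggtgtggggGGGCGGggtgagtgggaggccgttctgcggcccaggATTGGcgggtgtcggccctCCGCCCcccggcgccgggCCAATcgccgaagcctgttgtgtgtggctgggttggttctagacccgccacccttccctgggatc
Csad start 1: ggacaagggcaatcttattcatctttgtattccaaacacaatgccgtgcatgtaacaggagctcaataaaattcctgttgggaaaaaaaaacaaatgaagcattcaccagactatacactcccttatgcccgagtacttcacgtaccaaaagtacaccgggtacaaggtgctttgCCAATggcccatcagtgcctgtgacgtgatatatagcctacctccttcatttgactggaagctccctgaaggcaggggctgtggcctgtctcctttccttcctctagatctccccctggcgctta
Csad start 2: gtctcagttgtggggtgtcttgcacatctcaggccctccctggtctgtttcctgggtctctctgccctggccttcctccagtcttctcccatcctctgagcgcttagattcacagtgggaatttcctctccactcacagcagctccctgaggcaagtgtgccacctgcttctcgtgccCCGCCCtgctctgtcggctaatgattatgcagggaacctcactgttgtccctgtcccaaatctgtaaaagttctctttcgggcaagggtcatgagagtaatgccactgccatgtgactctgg

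The table gave 1 start for Cbs and 2 for Csad. The Cbs window held 2 CCAAT and 2 GGGCGG matches, the first Csad window 1 CCAAT match and the second Csad window 1 GGGCGG match. Over 32851 promoter windows of equal length, 37.4% held CCAAT and 35.7% held GGGCGG. The sequence TATAAA, present in 13.6% of windows, was in none of the 3. The Cbs window was rich in CG dinucleotides, with 22, more than 76.9% of windows, and a GC content of 66.7%. The Csad windows had 6 and 5 CG dinucleotides, more than 43.6% and 38.0% of windows.

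Arrays were grouped by the form of the slide name in the sample descriptions into 4 slide series, called A to D. The labels themselves define no series, and the lone array of series D carries no slide number. Of the mthr-/- arrays, 4 were in series A, 2 in B and 1 in D, and of the wild type arrays 1 was in A, 4 in B and 2 in C. Summed background-subtracted intensity of the mouse oligonucleotides ran between 16913 and 87080 units on mthr-/- arrays and between 14791 and 57034 units on wild type arrays. All 7 hepatocyte marker genes on the array (among them Alb, Apoa1 and Cps1) passed the filter on dim signals, 6 of them above background on every array, and together they took 22.2% to 36.3% of the summed intensity on mthr-/- arrays and 9.66% to 41.3% on wild type arrays. The 3 endothelial markers took at most 0.077% on mthr-/- arrays and 0.091% on wild type arrays, and the 5 stellate cell and fibroblast markers at most 0.62% on mthr-/- arrays and 0.47% on wild type arrays. The muscle markers Mb and Slc25a4 took up to 0.82% on mthr-/- arrays and 1.89% on wild type arrays, the cholangiocyte marker Krt19 at most 0.017% on mthr-/- arrays and 0.015% on wild type arrays, and no Kupffer cell or blood marker of the lists used was on the array. The part of these cell markers in the results was not tested. In RNA of a whole sample, fewer cells of a type and less RNA per cell cannot be told apart.

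Of the 8 oligonucleotides, 7 passed the filter, which asked for a signal above the plant control oligonucleotides on at least 7 of the 14 arrays. Of all mouse oligonucleotides, 139 of 284 did. Cbs 394, Cth 318, Cdo1 322, Csad 302 and Csad 153 were above that limit on all 14 arrays. Cbs 326 and Cbs 234 were above it on 13, and wild type 6 was the array that missed for both. Csad 129 was above it on 4 arrays, 3 of mthr-/- and 1 of wild type, all in series A. Intensities of different oligonucleotides depend on how each binds its target, so their order along the route is not an order of transcript amounts.

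Levels are given as log2 normalized intensity, on which oligonucleotides near background lie at about 6.8. Cbs 394 gave the brightest signal of the 8, with a lowest, median and highest log2 level of 8.70, 8.85 and 9.33 on mthr-/- arrays, against 8.53, 8.83 and 9.23 on wild type arrays. Cbs 326 lay at 7.04, 7.25 and 7.66 on mthr-/- arrays, against 7.00, 7.13 and 7.38 on wild type arrays. Cbs 234 lay at 6.91, 7.17 and 7.67 on mthr-/- arrays, against 6.86, 6.95 and 7.64 on wild type arrays. The ranges of the genotypes overlapped for all 3, as they did for each of the 139 tested oligonucleotides (0% apart), and mthr-/- 3 was the highest array for Cbs 326 and Cbs 234 while it was the lowest mthr-/- array for Cbs 394. Cth 318 lay at 7.12, 7.50 and 7.86 on mthr-/- arrays, against 7.03, 7.41 and 7.68 on wild type arrays, with overlap.

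Cdo1 322, the step that commits cysteine to oxidation, lay at 8.15, 8.48 and 8.83 on mthr-/- arrays, against 7.92, 8.18 and 8.37 on wild type arrays. Of the mthr-/- arrays, 6 of 7 were above the wild type mean, and the exception was mthr-/- 5, so the ranges overlapped. Csad 302 lay at 6.86, 7.18 and 7.61 on mthr-/- arrays, against 6.96, 7.65 and 8.23 on wild type arrays. Csad 153 lay at 6.83, 7.14 and 7.68 on mthr-/- arrays, against 7.14, 7.52 and 8.12 on wild type arrays. For Csad 302 all 7 mthr-/- arrays were below the wild type mean, and for Csad 153 6 of 7 were, yet wild type 1 lay among the low mthr-/- arrays for both. The lowest Csad signals were on mthr-/- 2, where background-subtracted intensity was 7.50 units for Csad 302 and 5.75 units for Csad 153 against a limit of 2.91 units. Csad 129 stayed between 6.75 and 7.01 on mthr-/- arrays and between 6.77 and 6.98 on wild type arrays.

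**Figure D1:**
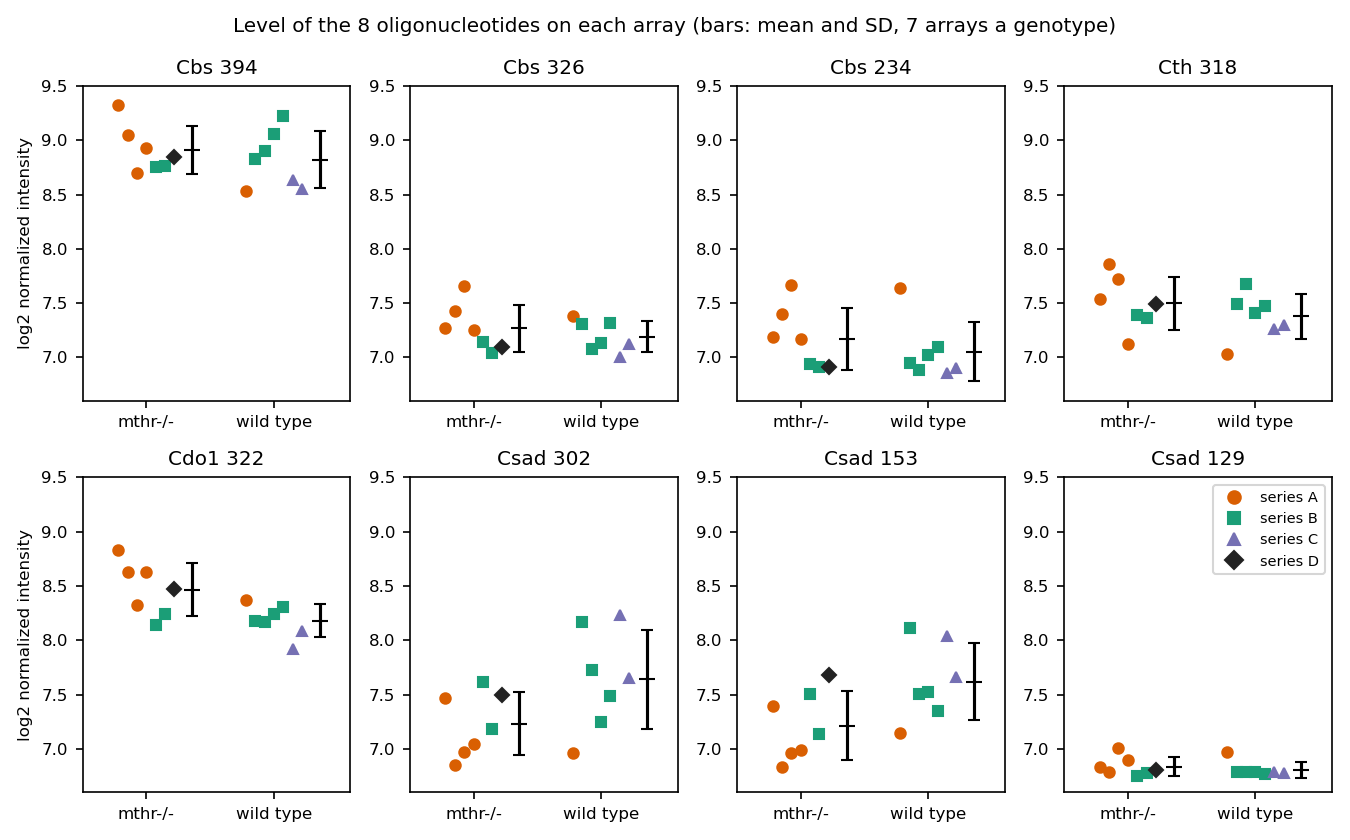
Log2 normalized intensity (vertical axis) of each of the 8 oligonucleotides on the mthr-/- arrays (left) and the wild type arrays (right), 1 point an array, with shape and colour for slide series A to D and a bar for the mean and SD of 7 arrays. Both Csad oligonucleotides with signal have lower mthr-/- means (7.23 and 7.22) than wild type means (7.64 and 7.62), and the series A arrays sit apart for Cbs 234.

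The first comparison asked whether the enzymes of the route differ between mthr-/- and wild type liver. None of the 7 tested oligonucleotides passed an adjusted p of 0.05 in limma's fit, and 0 of all 139 did (0% called; smallest adjusted p 0.53, with 12 oligonucleotides at an unadjusted p below 0.05). Cdo1 322 averaged 8.47 ± 0.25 on mthr-/- arrays and 8.18 ± 0.15 on wild type arrays (SD, n = 7 each), a log2 difference of 0.28 (SE 0.11, 95% interval 0.059 to 0.51; limma's adjusted p = 0.53). Csad 302 averaged 7.23 ± 0.29 on mthr-/- arrays and 7.64 ± 0.46 on wild type arrays, and its log2 difference was -0.41 (SE 0.20, interval -0.83 to 0.017; adjusted p = 0.54). Csad 153 averaged 7.22 ± 0.32 on mthr-/- arrays and 7.62 ± 0.35 on wild type arrays, and its log2 difference was -0.40 (SE 0.17, interval -0.77 to -0.036; adjusted p = 0.53). At an unadjusted p below 0.05 there were 2 of the 7, Cdo1 322 and Csad 153, while 8.63% of all tested oligonucleotides reached that level.

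The Cbs and Cth oligonucleotides lay closer to 0. Log2 differences were 0.090 (SE 0.12) for Cbs 394, 0.078 (SE 0.094) for Cbs 326, 0.12 (SE 0.14) for Cbs 234 and 0.12 (SE 0.12) for Cth 318. The 95% intervals were -0.18 to 0.36 for Cbs 394, -0.13 to 0.28 for Cbs 326, -0.19 to 0.43 for Cbs 234 and -0.13 to 0.37 for Cth 318. Single arrays moved these values: without mthr-/- 3 Cbs 326 was at 0.014 and Cbs 234 at 0.037, and without wild type 1 Cbs 234 was at 0.22. Cbs 394 was at 0.023 without mthr-/- 1 and at 0.16 without wild type 5, and Cth 318 at 0.060 without mthr-/- 2. The median difference over all 139 was -0.0029, and 49.6% were higher in mthr-/-, against 5 of the 7 route oligonucleotides. Without normalization between arrays all 139 shifted by a median of 0.81 towards mthr-/-, and relative to that median Cbs 394, Cth 318 and Cdo1 322 lay at -0.37, -0.0016 and -0.079, so the direction of these 3 depends on the scaling, whereas Csad 302 lay at -0.60 and Csad 153 at -0.56. With arrays centred on 4 reference genes the shift of all 139 was 0.46, and before it is taken off Csad 302 was at -0.14, Csad 153 at -0.10, Cbs 234 at 0.60, Cbs 326 at 0.52 and Cth 318 at 0.46.

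Slide series moved with genotype, since 4 of the 5 series A arrays were mthr-/-. With slide series as a block, a fit in which the arrays of series C and D add nothing to the genotype difference, Cdo1 322 was at 0.066 (SE 0.099), Csad 302 at -0.12 (SE 0.21) and Csad 153 at -0.22 (SE 0.18). Cbs 234 and Cbs 326 turned to -0.15 (SE 0.10) and -0.064 (SE 0.092), while Cth 318 stayed at 0.11 (SE 0.16) and Cbs 394 was at 0.022 (SE 0.16). Within series B, mthr-/- minus wild type was -0.032 for Cdo1 322, -0.26 for Csad 302, -0.30 for Csad 153, -0.14 for Cth 318 and -0.25 for Cbs 394. Within series A, where wild type has 1 array, it was 0.23 for Cdo1 322, 0.12 for Csad 302, -0.097 for Csad 153, 0.53 for Cth 318 and 0.47 for Cbs 394.

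**Figure D2:**
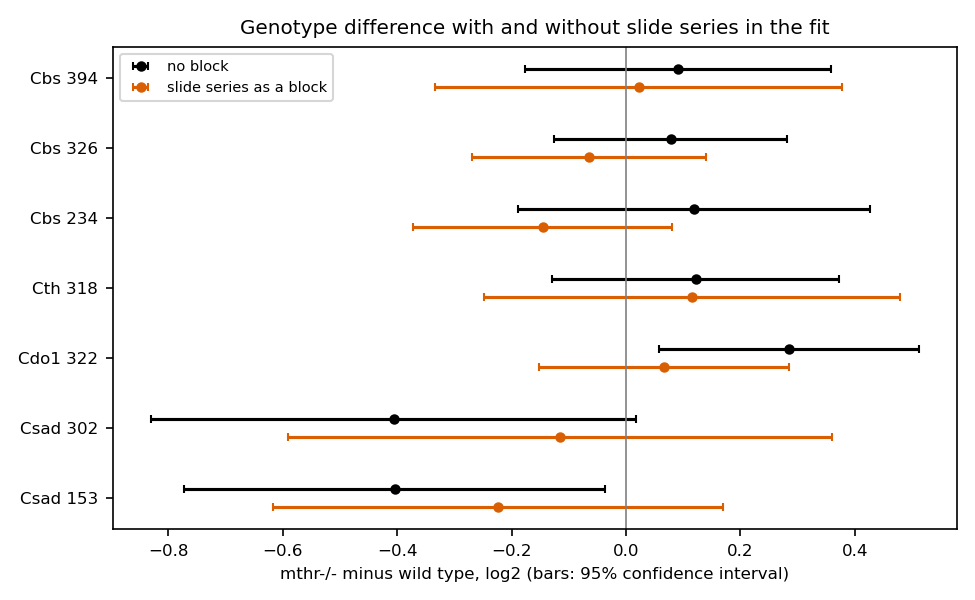
Log2 difference, mthr-/- minus wild type (horizontal axis), of the 7 tested oligonucleotides with 95% confidence intervals, in the fit without a block (black) and with slide series as a block (orange). Csad 153 and Cdo1 322 have intervals that leave out 0 without the block (-0.77 to -0.036 and 0.059 to 0.51), and all 7 intervals hold 0 with it.

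Among the tested members, only Cbs 234 passed in the comparison of slide series A and B. Cbs 234, at 7.17 to 7.67 on the 5 series A arrays, was at 6.86 to 7.09 on the 9 others, with no overlap, which held for 8.63% of all tested oligonucleotides and for no other member. The series A arrays included wild type 1, at 7.64. With genotype in the model, series A minus series B was 0.51 (SE 0.10; limma's adjusted p = 0.014), among 10 of 139 oligonucleotides that passed, 8 of them brighter (5.76%) and 2 dimmer (1.44%) in series A. Cbs 326 differed by 0.26 (SE 0.092; adjusted p = 0.11) and Cdo1 322 by 0.31 (SE 0.099; adjusted p = 0.075). Csad 302 lay lower in series A by a log2 difference of -0.46 (SE 0.21; adjusted p = 0.23) and Csad 153 by -0.35 (SE 0.18; adjusted p = 0.24). Cbs 394 was at -0.024 (SE 0.16) and Cth 318 at -0.067 (SE 0.16). The call on Cbs 234 was lost without wild type 1, at 0.44, without mthr-/- 5, at 0.58, and with arrays centred on their median, at 0.48.

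Oligonucleotides of one gene were then set against each other over the 14 arrays, in 4 pairs. Csad 302 and Csad 153 followed each other closely, with a Pearson r of 0.94 and a Spearman rho of 0.88 (permutation p = 1e-05, the smallest that 100000 permutations can give, and 0.00011; adjusted over the 4 pairs 4e-05 and 0.00022). Their r was 0.88 without the 2 arrays farthest from the median, wild type 6 and wild type 2, and 0.88 within the 6 arrays of series B. Cbs 326 and Cbs 234, annotated to the same transcript record, also did so, with r 0.88 and rho 0.91 (permutation p = 4e-05 and 2e-05, both 8e-05 adjusted). For them r was 0.77 without mthr-/- 3 and mthr-/- 2 and 0.65 within series B.

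Cbs 394, annotated to the other transcript variant, showed no such relation over all arrays. Its r was 0.11 with Cbs 326 (rho 0.15; permutation p = 0.70 and 0.62, adjusted 0.88 and 0.62) and -0.044 with Cbs 234 (rho 0.21; permutation p = 0.88 and 0.46, adjusted 0.88 and 0.62). Without the 2 farthest arrays, mthr-/- 1 and wild type 5, r was 0.00093 and -0.13. Over the 9 arrays outside series A, however, r between Cbs 394 and Cbs 234 was 0.85, and it was 0.88 within series B. For Cbs 394 and Cbs 326 these values were 0.57 and 0.51. The log2 ratio of Cbs 234 over Cbs 394 within an array averaged -1.54 ± 0.66 on mthr-/- arrays and -2.05 ± 0.69 on wild type arrays (SD, n = 7 each).

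Csad 129 did not follow the other Csad oligonucleotides. Its r was -0.54 with Csad 302 and -0.50 with Csad 153, but 0.85 with Cbs 234 and 0.69 with Cbs 326, all over the same 14 arrays and given as descriptions. Its highest background-subtracted intensity, 111.5 units on mthr-/- 3, fell on the array with the highest Cbs 234 intensity, 376.3 units. That array also had the highest summed intensity of all 14, 87080 units, and the highest intensity of Cth 318, Cdo1 322, Cbs 326 and Cbs 394. Csad 302 ran opposite to Cbs 234, with r -0.72, and to Cdo1 322, with r -0.60. After genotype means were removed, r was -0.72 with Cbs 234 and -0.43 with Cdo1 322. These arrays share slide series and normalization.

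**Figure D3:**
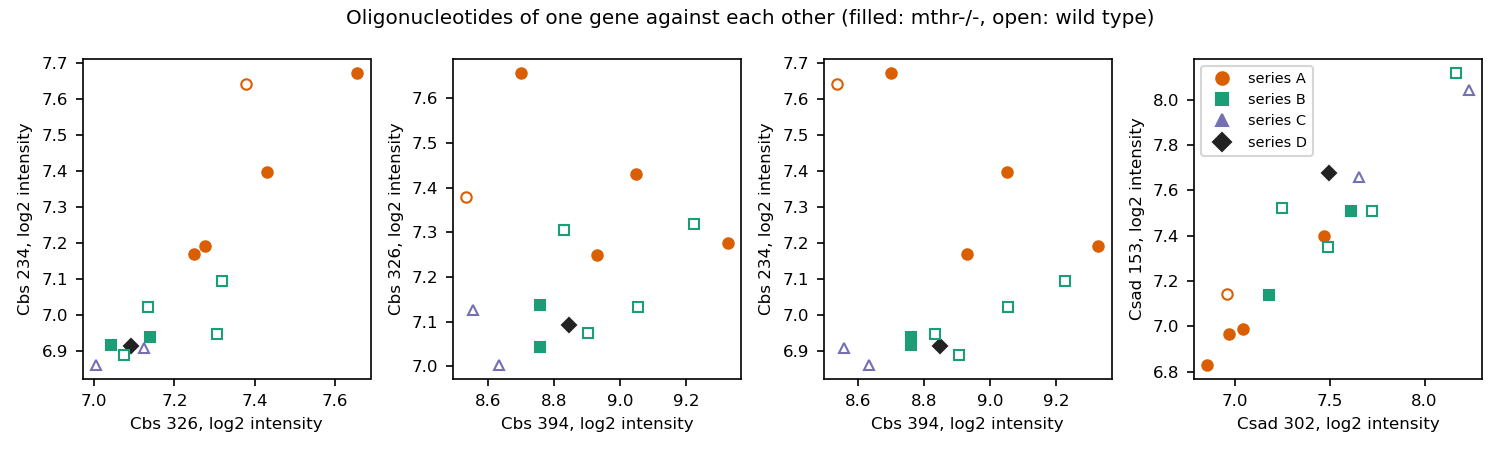
Log2 normalized intensity of one oligonucleotide against another of the same gene, 1 point an array, filled for mthr-/- and open for wild type, with shape and colour for slide series. The Csad pair (r 0.94) and the pair Cbs 326 and Cbs 234 (r 0.88) lie along a line, whereas Cbs 394 lines up with Cbs 234 outside series A (r 0.85) and not over all 14 arrays (r -0.044).

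The spread between arrays exceeded that between the spots of an array for every member. For Csad 302 the SD over 14 arrays was 0.43, which was 4.82 times the median SD between spots, and its highest and lowest arrays differed 2.60-fold. For Csad 153 the SD was 0.38 and the ratio 3.22, and for Cbs 234 they were 0.27 and 3.25. Cbs 394 had the lowest ratio, 1.41, with an SD of 0.24. Cth 318 had an SD of 0.23 (ratio 1.86), Cdo1 322 of 0.24 (ratio 1.74) and Cbs 326 of 0.18 (ratio 1.93). Over all tested oligonucleotides the median SD was 0.20 between arrays and 0.074 between spots, so the excess was not particular to the route.

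Ratios between neighbouring steps were compared with the brightest oligonucleotide of each gene, on levels before normalization between arrays. A shift of all log2 levels of an array cannot move them. The brightness of an array can, because the offset added before the log2 draws ratios of dim signals towards 0. On the dim array mthr-/- 5, 33.675 units for Cth 318 and 183.475 for Cbs 394 gave a log2 ratio of -0.70. The log2 ratio of Cth over Cbs averaged -1.29 ± 0.56 on mthr-/- arrays and -1.66 ± 0.30 on wild type arrays (SD, n = 7 each), a difference of 0.37 (exact permutation test, two-sided, p = 0.15, adjusted over 3 ratios 0.22). Cdo1 over Cth averaged 0.84 ± 0.59 on mthr-/- arrays and 0.92 ± 0.14 on wild type arrays, a difference of -0.077 (exact permutation p = 0.76, adjusted 0.76). Csad over Cdo1, the branch into hypotaurine, averaged -1.09 ± 0.68 on mthr-/- arrays and -0.57 ± 0.56 on wild type arrays, a difference of -0.52 (exact permutation p = 0.15, adjusted 0.22). The permutation test told the genotypes apart for none of the 3 ratios. In these ratios mthr-/- 4 had the lowest Cth over Cbs of all arrays, -2.27, and the highest Cdo1 over Cth, 1.91. By background-subtracted intensity other arrays lay further out. Wild type 6 had 15.25 units for Cth 318 and 204.75 for Cbs 394, against 68.25 and 572.5 on mthr-/- 4. Wild type 1 had 21.5 units for Cth 318 and 153.25 for Cdo1 322, against 68.25 and 435.75 on mthr-/- 4. Without mthr-/- 4, an alternative chosen after seeing the data, the SD of Cdo1 over Cth on mthr-/- arrays was 0.38 (n = 6). Within series B the Csad over Cdo1 difference was 0.11, the opposite direction. On quantile normalized levels series B gave -0.26 for Csad 302 and -0.032 for Cdo1 322, so the ratio did not turn there.

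**Figure D4:**
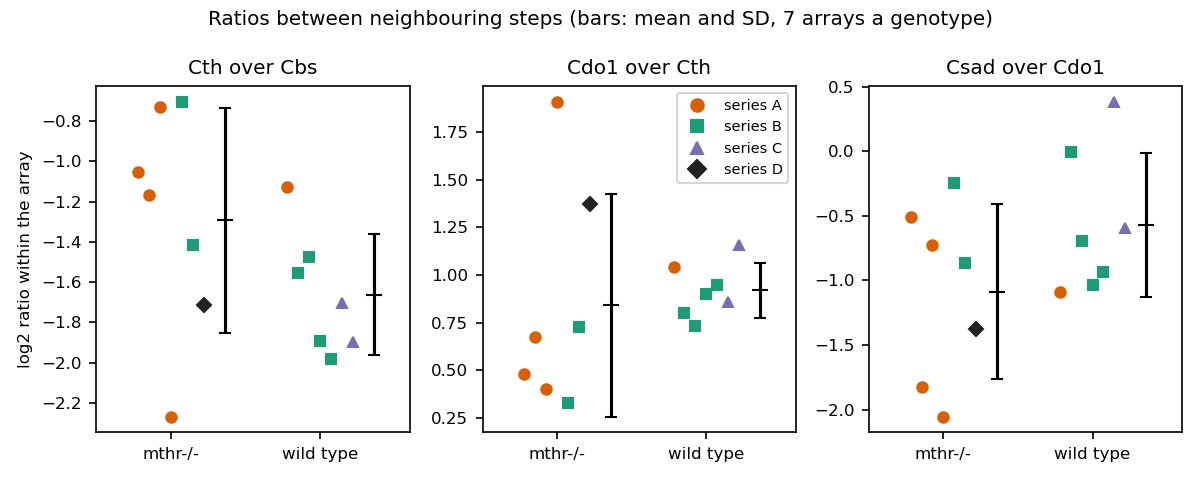
Log2 ratio within the array (vertical axis) of Cth over Cbs, Cdo1 over Cth and Csad over Cdo1 on the mthr-/- arrays (left) and the wild type arrays (right), 1 point an array, with slide series by shape and colour and a bar for the mean and SD of 7 arrays. On these levels, which hold the offset, the SD of Cdo1 over Cth is 0.59 for mthr-/- (0.38 without mthr-/- 4) and 0.14 for wild type. Background-subtracted Cdo1 322 and Cth 318 ran from 243 and 114.5 units on wild type 3 to 153.25 and 21.5 on wild type 1. In mthr-/- they ran from 752.5 and 404 units on mthr-/- 3 to 435.75 and 68.25 on mthr-/- 4. A wider mthr-/- spread is therefore not claimed. The groups overlap in all 3 panels.

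Females were set against males in a model that also held genotype. No route oligonucleotide passed, and 0 of 139 did (0% called; 3, or 2.16%, at an unadjusted p below 0.05), with female minus male between -0.22 for Cbs 234 (SE 0.14) and 0.17 for Cbs 394 (SE 0.13). Among the members, the genotype by sex term was largest in size for Cth 318, at -0.51 (SE 0.22; adjusted p = 0.999 in limma). For that term 0 of 139 passed, and 2, or 1.44%, had an unadjusted p below 0.05, Cth 318 among them. Cth 318 averaged 7.38 ± 0.19 in 4 mthr-/- females and 7.54 ± 0.19 in 2 wild type females (SD). In males it averaged 7.66 ± 0.24 in 3 mthr-/- and 7.31 ± 0.19 in 5 wild type animals (SD). With so few females of wild type, the interval of the term ran from -0.99 to -0.032.

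The authors' deposited table of medians gave values for 7 of the 8 oligonucleotides. In the authors' deposited table Cbs 234 had a median of 33.6 in mthr-/- and 8.81 in wild type, a ratio of 3.82. Cbs 326 had 41.5 in mthr-/- and 29.05 in wild type in the authors' deposited table, a ratio of 1.43, and Cbs 394 had 272 in mthr-/- and 285 in wild type, a ratio of 0.95. For Cth the authors' deposited table gave 59.95 in mthr-/- and 44.2 in wild type, a ratio of 1.36, and for Cdo1 191 in mthr-/- and 140.1 in wild type, a ratio of 1.37. For Csad 302 the authors' deposited table gave 35.98 in mthr-/- and 65.5 in wild type, a ratio of 0.55, and for Csad 153 32.6 in mthr-/- and 54.0 in wild type, a ratio of 0.60. For these oligonucleotides the mthr-/- medians of the authors' deposited table equal those of the deposited value table without mthr-/- 7. The cells of wild type 1 for Cbs 234 and of mthr-/- 2 for both Csad oligonucleotides are blank in the deposited value table. Their scaled means in the array files were 69 units for Cbs 234, the highest wild type value, and 7 and 6 units for Csad 302 and Csad 153, the lowest of all arrays. With these cells filled and all 7 arrays of each genotype used, an alternative also chosen after seeing the data, the ratio of medians was 3.27 for Cbs 234, 1.22 for Cbs 326, 0.95 for Cbs 394, 1.20 for Cth, 1.45 for Cdo1, 0.55 for Csad 302 and 0.60 for Csad 153. The wild type median of Cbs 234 then was 8.85. None of these ratios takes slide series into account. In series A the scaled means of Cbs 234 were 29 to 89 units on mthr-/- arrays and 69 on wild type 1. Outside series A they were 9 to 14 units on mthr-/- arrays and 6 to 26 on wild type arrays.

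Genes listed for the supply of homocysteine or its return to methionine were represented by 7 tested oligonucleotides of 6 genes. Of these, 6 were higher in mthr-/-, with a median log2 difference of 0.41 beside -0.0029 over all 139, and 0 passed. Both medians are from the fit without slide series. Ahcy, which releases homocysteine from S-adenosylhomocysteine, had differences of 0.54 (SE 0.18) and 0.45 (SE 0.20) on its oligonucleotides, which were 0.24 and 0.15 with slide series as a block. Bhmt differed by 0.44 (SE 0.40), and by -0.25 with that block. Mat1a, which makes S-adenosylmethionine in liver, differed by 0.41 (SE 0.30) and by 0.034 with the block, and Gnmt, a methyltransferase that consumes it, by 0.023 (SE 0.24) and by 0.34 (SE 0.31) with the block. Pemt differed by 0.16 (SE 0.10), and by 0.10 with the block. Mat2b, the only lower member, differed by -0.039 (SE 0.072), and by 0.0062 with the block. Serine, the partner of homocysteine, is interconverted with glycine by Shmt1 and Shmt2, which differed by -0.080 (SE 0.063) and 0.058 (SE 0.054).

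Downstream, 4 genes of bile acid conjugation, taurine carriage and glutathione were tested, and 0 passed. Baat, which conjugates bile acids with taurine and glycine, averaged 7.21 ± 0.14 on mthr-/- arrays and 7.37 ± 0.21 on wild type arrays (SD, n = 7 each), a log2 difference of -0.16 (SE 0.092; limma's adjusted p = 0.56), which was -0.042 (SE 0.098) with slide series as a block. The taurine transporter Slc6a6 differed by -0.057 (SE 0.075). For glutathione, which is built from cysteine, the synthetase Gss differed by 0.027 (SE 0.046) and the reductase Gsr by -0.020 (SE 0.050). Their median was -0.039.

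The oligonucleotides whose levels ran most like each gene's brightest one were ranked by Pearson r over the 14 arrays after genotype means were removed. For Csad 302 these were Hspd1, a mitochondrial chaperonin (r 0.87), Rpl30, a ribosomal protein gene (r 0.87), and Sod2, the mitochondrial superoxide dismutase (r 0.84). Over the 9 arrays outside series A their r was 0.63, 0.83 and 0.58. Cdo1 322 was most like Rps3a1 (r 0.83), Ctsh (r 0.79) and Rps2 (r 0.72), where Rps3a1 and Rps2 encode ribosomal proteins and Ctsh encodes cathepsin H. For Cbs 394 they were Pon1 (r 0.68), Mst1 (r 0.67) and Cdo1 itself (r 0.64), and for Cth 318 they included Sod1 (r 0.59) and Shmt1 (r 0.55). Outside series A the r of Cbs 394 with Pon1 was 0.22 and that with Cdo1 was 0.57.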

How the data were processed

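Total RNA was labelled with 1 dye, per the labels' protocols, so each array has 1 colour and each animal 1 array. Per the file headers, the deposited array files give linear intensity for spot and local background, with 4 spots an oligonucleotide. Columns scaled by the authors, and a value table of scaled intensity for 103 oligonucleotides, were deposited too. The authors' deposited comparison gives a median for each genotype and their log10 ratio (mthr-/- on top), per the file headers. The scanner is not given in the sources used here. Spots blanked by the authors were left out, and block 3 of mthr-/- 1, which repeats block 2, was counted once. An array with a shifted header and one in descending order were read by position number.

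Spots were corrected with normexp (offset 50), which draws differences of dim oligonucleotides towards 0, then quantile normalized and averaged on the log2 scale with limma 3.58.1 in R 4.3.3. The limit of detection was the mean plus 2 SD of 16 plant control spots an array and ran from -0.21 to 9.81 units. Genotype, sex, slide series and interaction were tested with limma's lmFit and eBayes over all 139 oligonucleotides passing on at least 7 arrays, with Benjamini-Hochberg adjustment. The steps were tested on simulated data without slide series effects and with a capped spread. The differences put in were larger than those fitted for the route. That run therefore does not show whether differences of the observed size would be called. Gene names came from the RefSeq table through the accession for 191 oligonucleotides, the symbol for 53 and a synonym for 22, while 18 kept their deposited name. Every route oligonucleotide is named, with tested members of lists of homocysteine synthesis and remethylation, cysteine fate and serine supply and the 3 oligonucleotides most like each gene. Members and lists were chosen with earlier results of these data known. Animal numbers are separate in each genotype. The correlation of same-numbered animals ran from -0.25 to 0.36 over 7 numbers. Alternatives covered normalization, background correction, the filter, spot handling, slide series, sex, single arrays and the deposited values. Precision is limited by the number of arrays. Results for some genes are not reported here, and no check of a targeted gene is given.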

Additional observations from a re-analysis of the deposited data

Results flagged for a closer look

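In 22 groups of 7 values (8 oligonucleotides and 3 ratios in each genotype), 2 held an array far from the rest, and chance alone marks about 1 in 20 groups. Wild type 1 was the single highest wild type array for Cbs 234, at a log2 level of 7.64, with a gap to the next array of 0.70 of the group's range. Wild type 1 was also the highest wild type array for Csad 129, at 6.98, with a gap of 0.90 of the range. It is the 1 wild type array of series A. No difference between the sexes in the genotype effect passed its test.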

How the results depend on the processing

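The genotype comparison called 0 oligonucleotides under every alternative run except without normalization between arrays, which called 1 that is not of the route. There Csad 153 and Csad 302 were at 0.25 and 0.21, before the shift of 0.81 of all oligonucleotides is taken off. With arrays centred on their median, Cth 318, Cdo1 322 and Cbs 394 were at -0.057, -0.13 and -0.43. With slide series as a fixed block, Cbs 234 and Cbs 326 were at -0.15 and -0.064. With an offset of 0, Csad 302, Csad 153 and Cbs 234 were at -0.63, -0.66 and 0.23, and with plain subtraction at -1.17, -1.44 and 0.79. Without single arrays the genotype difference ran from 0.037 to 0.22 for Cbs 234, from 0.014 to 0.12 for Cbs 326, from 0.023 to 0.16 for Cbs 394, from 0.060 to 0.18 for Cth 318, from 0.24 to 0.35 for Cdo1 322, from -0.53 to -0.31 for Csad 302 and from -0.49 to -0.32 for Csad 153. The animal number as a replicate block gave -0.41 for Csad 302 and 0.28 for Cdo1 322 and called 0. Same-numbered animals did not pair, since 0 of 7 mthr-/- arrays were closest to the wild type array of their number.

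The sex difference on arrays centred on their median was 0.15 for Csad 302, 0.19 for Cth 318 and 0.010 for Cbs 326, and with a slide series block -0.021 for Csad 153. Leaving out single arrays it ran from -0.047 to 0.13 for Csad 153, from -0.11 to 0.11 for Csad 302 and from -0.15 to 0.034 for Cth 318. The interaction on median-centred arrays was 0.030 for Cbs 234, 0.11 for Cbs 326 and 0.32 for Cbs 394, and 0.055 for Cbs 394 with the block. Leaving out single arrays it ran from -0.37 to 0.017 for Cbs 234, from -0.27 to 0.0031 for Cbs 326 and from -0.22 to 0.017 for Cbs 394.

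Series A against B called 0 on median-centred arrays, with Cth 318 at 0.019 and Cbs 234 at 0.48. Without single arrays it called between 1 (without wild type 1 and without mthr-/- 5) and 16 (without mthr-/- 1), and 5 without wild type 2. Cbs 394 then ran from -0.12 to 0.24 and Cth 318 from -0.16 to 0.19. Cdo1 over Cth was 0.16 on quantile normalized values and ran from -0.26 to 0.0082 without single arrays. Before normalization between arrays, Cth over Cbs was -0.18 within series A, and Csad over Cdo1 was 0.11 within series B. Without normalization, r was 0.72 for Cbs 394 with Cbs 326 and 0.62 with Cbs 234, and with an offset of 0 Cbs 394 and Cbs 234 had 0.019. Ratios with the animal number as a block were not run. The causes were not tested.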
